A study of Mus musculus with 24 samples.

Results

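The olfactory receptor genes of mouse chromosome 7 were examined in broad ChIP domains of LAP2alpha, lamin B1 and lamin A/C. They were taken as the protein-coding genes of a GENCODE M1 annotation of the mm9 genome whose symbols start with Olfr and which lie on chromosome 7. This gave 240 genes of 22350 protein-coding gene records, chromosome Y left out. Another 873 Olfr genes lie on other chromosomes, with 286 on chromosome 2 and 129 on chromosome 9.

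The study mapped chromatin bound by A-type lamins and by LAP2alpha, a nucleoplasmic partner of lamin A/C encoded by Tmpo, in immortalized mouse dermal fibroblasts with (Tmpo WT, Lap2alpha +/+) or without LAP2alpha (Tmpo KO, Lap2alpha -/-). Asynchronously growing cells of both genotypes were crosslinked untreated, and their chromatin was sonicated for 12 or 30 cycles. Domain lists of 12 libraries were used, 1 for each group. LAP2alpha and lamin B1 (antibodies against each protein) were mapped in WT cells at both sonications, and lamin A/C was mapped with 2 antibodies, N18 and 3A6, in WT and in KO cells at both sonications. N18 recognises the N terminus of lamin A/C and 3A6 its C-terminal immunoglobulin fold. The 4 input and 8 histone mark samples of the series were not analysed here. The cells are immortalized fibroblasts and not olfactory neurons, and no source says that more than 1 line or culture stood behind a genotype. No LAP2alpha library of KO cells was used and the files hold no expression values, so neither the loss of LAP2alpha nor the fibroblast identity was checked from these data. Each group is 1 library, so no spread between replicates and no test between groups exists, and every count below describes those libraries alone.

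Olfactory receptors are G protein-coupled receptors of the olfactory epithelium, and their genes form one of the largest mammalian families. A mature olfactory neuron expresses 1 allele of 1 receptor gene, while the remaining receptor genes lie in compact, silent chromatin. Receptors are split into class I, which resemble those of fish and sit in a single large cluster on mouse chromosome 7, and class II, which are spread over clusters on many chromosomes. The class I cluster surrounds the beta-globin genes. The nuclear lamina is a meshwork of A-type and B-type lamins under the inner nuclear membrane, and the chromatin regions it touches are mostly gene-poor and little expressed. A-type lamins also occur in the nuclear interior, where LAP2alpha binds them.

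The 240 genes fell into 7 clusters where a gap of over 1 Mb between neighbours started a new cluster, and the clusters are lettered here along the chromosome. Cluster A held 8 genes, from Olfr1344 to Olfr1350 (chr7:6392547-6523630). Cluster B held 2 genes, Olfr291 and Olfr290 (chr7:92002083-92065238). Cluster C held 15 genes, from Olfr310 to Olfr292 (chr7:93417240-93843894). Cluster D held 2 genes, Olfr520 and Olfr521 (chr7:106883655-106916640). Cluster E held 129 genes, from Olfr543 to Olfr692, over 2.89 Mb (chr7:109625287-112517869), and is the class I region. Cluster F held 65 genes, from Olfr693 to Olfr519, over 2.22 Mb (chr7:113821048-116037934). Cluster G held 19 genes, from Olfr522 to Olfr541, over 0.543 Mb near the end of the chromosome (chr7:147347838-147891166). Clusters E and F together held the bulk of the genes, with 53.8% and 27.1% of them, and lay 1.30 Mb apart.

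Of the 240 genes, 234 had 1 coding exon, and the median coding length was 948 bases. The coding sequences were most alike within a cluster: the most similar chromosome 7 receptor lay in the same cluster for 228 genes. Identity between the coding sequences of a pair (aligned end to end) had a median of 58.1% inside cluster E and 58.2% inside cluster F, but 52.9% between E and F. The exceptions included Olfr658 and Olfr657 of cluster E, whose most similar members were Olfr503 and Olfr504 of cluster F at 97.1% and 95.6% identity. For 38 genes another member was at 95% identity or more, 26 of them in cluster E and 10 in cluster F, and the highest value was 99.5%, between Olfr596 and Olfr603. Reads from such copies are hard to place, and the authors discarded reads with a mapping quality under 20. What this did to the domains was not tested.

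Domains were called from whole stretches of chromatin and not from the genes, so the sequences before the genes are given as context for 4 patterns of domain cover described further on. The stretch shown is the 250 bases before the annotated gene start, read from the mm9 genome and written 5′ to 3′ on the strand of the gene. In each pattern it is the first gene along the chromosome with an annotated 5′ untranslated region, which 93 of the 240 genes have. For Olfr693 that region is 1 base long, so its window ends almost at the first coding base and may not be the promoter. Olfr543 (minus strand, chr7:109626417-109626666) stands for the genes in no domain of any library, Olfr525 (plus strand, chr7:147508251-147508500) for those in a domain of every library, Olfr557 (plus strand, chr7:109846480-109846729) for the genes of cluster E in domains of lamin B1 and lamin A/C-3A6 WT at 30 cycles alone, and Olfr693 (minus strand, chr7:113822000-113822249) for genes in a 3A6 domain of KO but not of WT cells at 12 cycles. Capitals mark matches on either strand to TATAAA, the TATA box core, to TAATTA, a core bound by homeodomain proteins such as Lhx2, or to CCCNNGGG, a core bound by Ebf proteins.
Olfr543: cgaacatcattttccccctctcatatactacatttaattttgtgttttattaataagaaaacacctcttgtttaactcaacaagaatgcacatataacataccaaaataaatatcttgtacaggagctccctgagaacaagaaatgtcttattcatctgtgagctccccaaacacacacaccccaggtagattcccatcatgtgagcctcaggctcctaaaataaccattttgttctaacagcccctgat
Olfr525: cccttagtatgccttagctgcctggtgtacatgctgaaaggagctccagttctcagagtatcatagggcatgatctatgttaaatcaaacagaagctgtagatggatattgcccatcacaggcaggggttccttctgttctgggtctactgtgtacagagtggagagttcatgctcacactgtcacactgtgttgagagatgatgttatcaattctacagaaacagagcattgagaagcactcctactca
Olfr557: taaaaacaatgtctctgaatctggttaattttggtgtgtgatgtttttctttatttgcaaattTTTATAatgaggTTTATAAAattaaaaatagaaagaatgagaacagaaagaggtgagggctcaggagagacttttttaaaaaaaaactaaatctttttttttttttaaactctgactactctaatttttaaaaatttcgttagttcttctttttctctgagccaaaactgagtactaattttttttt
Olfr693: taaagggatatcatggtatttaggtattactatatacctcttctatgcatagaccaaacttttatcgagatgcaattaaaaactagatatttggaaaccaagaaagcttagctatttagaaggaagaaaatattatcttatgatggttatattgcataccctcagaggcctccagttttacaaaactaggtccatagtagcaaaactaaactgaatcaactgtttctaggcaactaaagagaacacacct
Only the Olfr557 window held matches, all 3 of them to TATAAA, of which 2 overlap on opposite strands. GC content was 25.2% in the Olfr557 window, 33.2% in that of Olfr693, 37.6% in that of Olfr543 and 45.2% in that of Olfr525.

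Across the family the windows were poor in G and C. Their median GC content was 35.0%, against 54.0% over all 22350 windows and 53.6% over the other 1832 genes of chromosome 7. No CG dinucleotide occurred in 111 of the 240 windows (46.2%), against 7.53% of all windows. TATAAA occurred in 94 windows (39.2%, against 12.3% of all), TAATTA in 37 (15.4%, against 4.59%) and CCCNNGGG in 9 (3.75%, against 13.1%). The A+T content of the windows moves with these shares, and its part in them was not tested. Olfr genes on other chromosomes had much the same windows, with a median GC content of 33.6%, TATAAA in 37.7% and TAATTA in 18.9%. By cluster the median GC content of the windows was 43.2% in D, 40.2% in A, 39.6% in G, 36.0% in E, 33.6% in B and 32.8% in both C and F. For 147 genes without an annotated 5′ untranslated region the window ends at the first coding base and may not be the promoter.

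A domain below is a region that the EDD program (enriched domain detector) called in 1 library against its input, in steps of 11 kb, and a gene is called covered when at least 50% of its length lies in domains. The libraries held 194 to 370 domains. The share of chromosome 7 inside domains ran from 13.2% in N18 WT at 30 cycles to 58.6% in LAP2alpha at 30 cycles, where it was 24.6% over the genome. Lamin A/C and LAP2alpha libraries of 12 and of 30 cycles came from different flow cells, so the effects of shearing and of the sequencing run cannot be told apart for them. The lamin B1 libraries shared 1 lane, and lamin A/C samples of both genotypes shared 1 lane at each sonication. The series has 1 input per genotype and sonication, so libraries of different antibodies share inputs.

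Receptor genes of chromosome 7 lay in lamin B1 domains more often than genes at large and, at 30 cycles, nearly all of them did. Lamin B1 at 30 cycles covered 223 of the 240 genes (92.9%), where 16.8% of all protein-coding genes were covered. At 12 cycles lamin B1 covered 60 genes (25.0%, against 7.76% of all genes). Every receptor gene covered at 12 cycles was also covered at 30. Lamin A/C-3A6 in WT cells at 30 cycles came next, with 179 genes (74.6%, against 9.42% of all genes). That place rests on low-scoring domains, since 5.83% of the receptor genes were covered there by domains above the median score of the library.

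The LAP2alpha and lamin A/C libraries at 12 cycles in WT cells covered few receptor genes, below the share of all genes. LAP2alpha at 12 cycles covered 34 genes (14.2%, against 35.9% of all genes). N18 WT at 12 cycles covered 9 genes (3.75%, against 27.4%), the lowest count of the 12 libraries. 3A6 WT at 12 cycles covered 34 genes (14.2%, against 21.1%). LAP2alpha at 30 cycles covered 94 genes (39.2%, against 32.3%), and N18 WT at 30 cycles covered 38 (15.8%, against 5.89%).

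In KO cells N18 covered 32 genes at 12 cycles (13.3%, against 23.1% of all genes) and 35 at 30 cycles (14.6%, against 28.5%). 3A6 covered 92 genes in KO at 12 cycles (38.3%, against 10.7%) and 111 at 30 cycles (46.2%, against 12.6%). So with 3A6 the receptor genes were covered above the share of all genes in KO at both sonications, and with N18 they were covered below it.

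**Figure D1:**
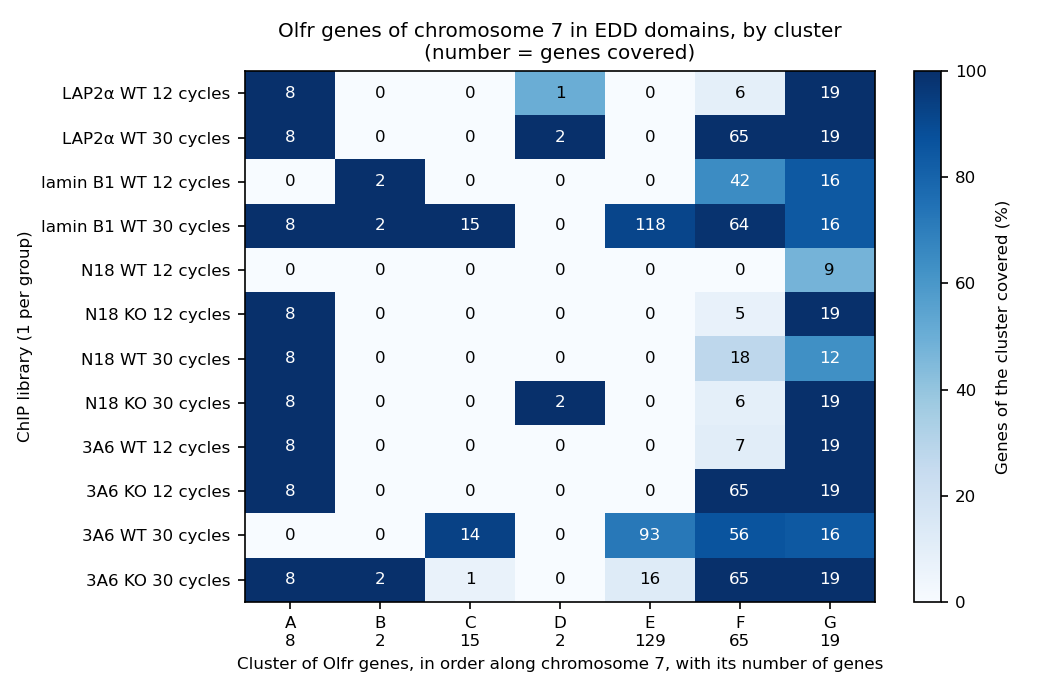
Each square is 1 cluster of Olfr genes (columns, A to G along chromosome 7, with the number of genes under the letter) in 1 library (lines), coloured by the percent of the cluster's genes covered by EDD domains and labelled with the number covered. Clusters A and G are dark in most libraries, while cluster E is coloured in 3 libraries alone, with 118, 93 and 16 of its 129 genes.

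Coverage came in runs of neighbours: along the chromosome the 240 genes formed 31 runs with the same set of libraries. A domain edge fell inside a gene in 2 of 2880 pairs of gene and library. These were Olfr658, covered over 63.7% of its length in 3A6 WT at 30 cycles, and Olfr504, covered over 67.9% in lamin B1 at 12 cycles. In all other pairs a gene was wholly inside or wholly outside. Of the 240 genes, 11 were covered in no library, 128 in 1 or 2 libraries and 47 in more than 6. The same tally was not made over all genes, so these numbers describe the receptor genes alone and show nothing particular to them. Genes of a cluster share domains and are not replicates of each other.

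Cluster E, the class I cluster, was covered by lamin B1 and by lamin A/C-3A6, and at 30 cycles only. In lamin B1 at 30 cycles 1 domain of 2.73 Mb with a score of 25.6 (library median 12.9) covered 118 of the 129 genes, from Olfr555 to Olfr692. The domain began 1.28 kb after the end of Olfr554 and ended 1.13 kb after the end of Olfr692, each well inside the 11 kb step. In 3A6 WT at 30 cycles 2 domains covered 93 genes. The first, of 1.31 Mb with a score of 6.37, ran from Olfr557 to Olfr638 with 70 genes. The second, of 0.572 Mb with a score of 5.29, ran from Olfr658 to Olfr686 with 23 genes. Both scored under the library median of 6.49. In 3A6 KO at 30 cycles 1 domain of 0.484 Mb with a score of 4.17, under the library median of 6.63, covered 16 genes, from Olfr65 to Olfr649. No gene of the cluster was covered in the 9 other libraries, which were both LAP2alpha libraries, lamin B1 at 12 cycles, all 4 N18 libraries and both 3A6 libraries at 12 cycles.

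Inside cluster E the genes fell into 8 runs. The first 11 genes, from Olfr543 to Olfr554 (among them Olfr543, Olfr544, Olfr545, Olfr547 and Olfr548-ps1), were in no domain of any library. The coding gene beyond the cluster on that side is Rrm1, which encodes a subunit of ribonucleotide reductase, 7.0 kb away. The longest run on the chromosome, 64 genes from Olfr557 to Olfr64, was covered in lamin B1 and in 3A6 WT at 30 cycles and in nothing else. It held Olfr78 and Olfr558, receptors also known from smooth muscle and other tissues outside the nose, which are named here for what is known of them and not by their values. A run of 6 genes from Olfr65 to Olfr638 was covered in 3 libraries, since the 3A6 WT and 3A6 KO domains overlapped by 110 kb there. The last 6 genes, from Olfr687 to Olfr692, and 7 genes from Olfr651 to Olfr657 were covered in lamin B1 at 30 cycles alone.

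The other genes inside the class I cluster followed their place. The 5 beta-globin genes, Hbb-b2, Hbb-b1, Hbb-bh2, Hbb-bh1 and Hbb-y, lie inside the 64-gene run and were covered in lamin B1 and 3A6 WT at 30 cycles alone. The domain of 3A6 KO at 30 cycles began 43.2 kb beyond the end of Hbb-y, so it held none of the globin genes. It held the tripartite motif genes Trim6, Trim34a, Trim5, Trim12a, Trim34b, Trim12c and Trim30b, several of which encode antiviral factors. The 3A6 WT domains left a gap of 638 kb over these genes. Receptor genes are absent from 357 kb of that gap, between Olfr649 and Olfr651, where the Trim genes stand. Of the 16 Trim genes of chromosome 7, lamin B1 at 30 cycles covered 11, all in cluster E, and 3A6 KO at 30 cycles covered 8, which were these 7 and Trim28 far from the cluster. Each of the other 10 libraries covered 0 to 2. Trim21, whose product binds antibodies inside cells, lies among the first 11 receptor genes and was covered in no library. Trim68, before the start of the 3A6 WT domain, and Trim30c, Trim30a and Trim30d, beyond the end of the KO domain, were covered in lamin B1 at 30 cycles alone.

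**Figure D2:**
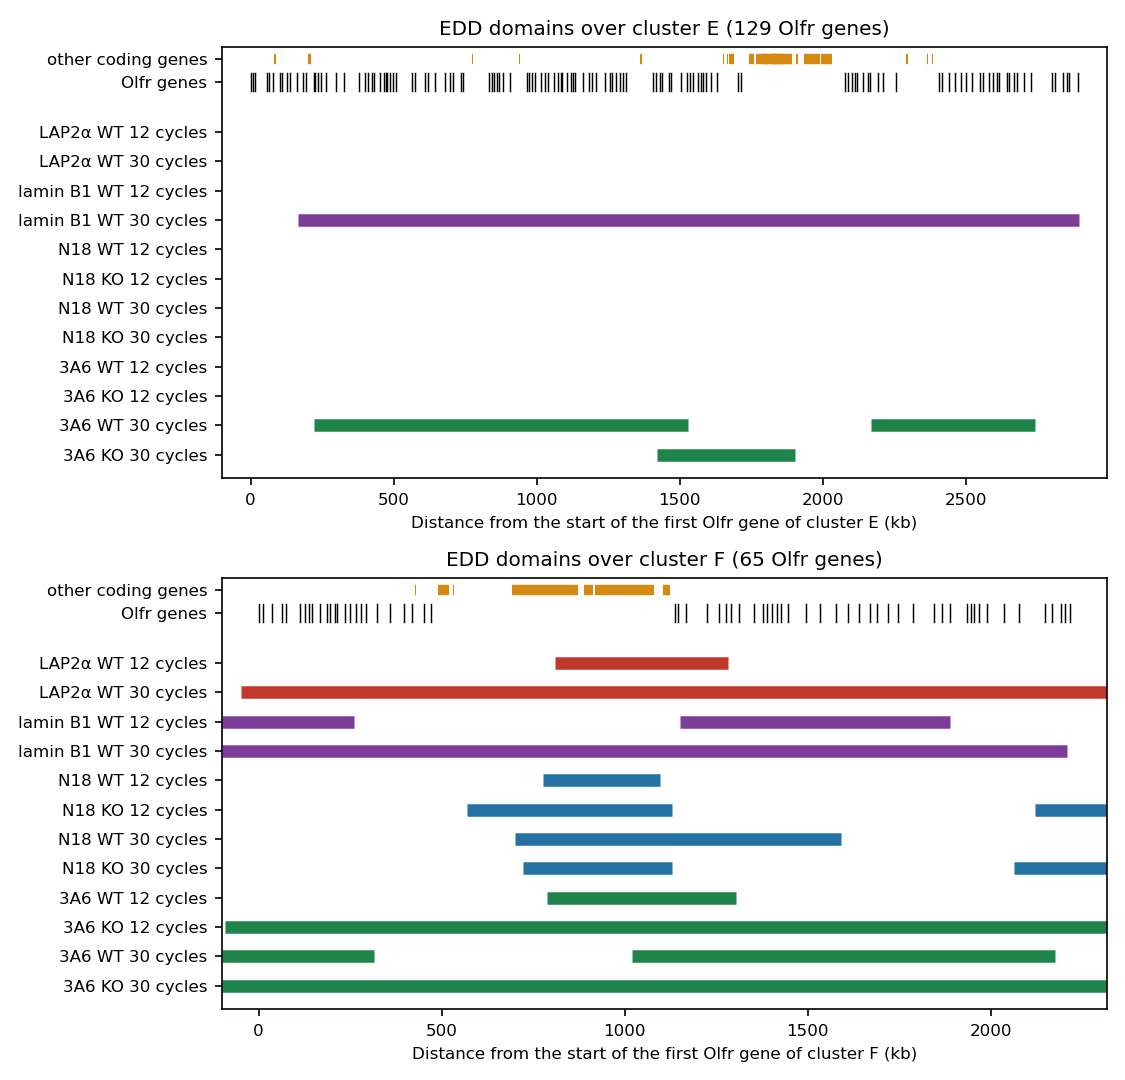
EDD domains (bars, cut off 100 kb outside the cluster) over clusters E (top) and F (bottom) in the 12 libraries, with black ticks for the start of each Olfr gene and orange bars for other protein-coding genes, against distance from the first Olfr gene in kb. Cluster E is crossed by domains of lamin B1 WT, 3A6 WT and 3A6 KO at 30 cycles alone, and in cluster F all 4 N18 libraries have a domain over the stretch without receptor genes.

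Cluster F has a stretch of 666 kb without receptor genes, between Olfr716 and Olfr467, that splits it into 25 genes and 40 genes. Libraries differed in which side of this stretch they held. Lamin B1 at 12 cycles had 1 domain on each side and a gap of 891 kb between them. The first covered 16 genes from Olfr693 to Olfr709-ps1 and the second 26 genes from Olfr470 to Olfr504, so that 42 of 65 genes were covered and none of the 9 other coding genes inside the cluster. N18 WT at 12 cycles was the reverse, with 1 domain of 319 kb over 5 of the 9 other genes and over no receptor gene. In LAP2alpha at 12 cycles a domain of 473 kb covered 5 of the 9 other genes and 6 receptor genes beside them, from Olfr467 to Olfr474. In 3A6 WT at 12 cycles a domain of 517 kb covered the same number of other genes, 5, and 7 receptor genes, from Olfr467 to Olfr476.

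The genes of that stretch are Syt9, a synaptotagmin of vesicle release, Olfml1, Ppfibp2, a liprin, Cyb5r2, a cytochrome b5 reductase, and Ovch2, together with Nlrp14, Rbmxl2 and 5330417H12Rik. The remaining coding gene of the cluster, Gm10081, stands among the receptor genes to the left. Syt9 and Ppfibp2 are the longest of them. Ppfibp2 was covered in 10 libraries and Syt9 in 8. On the right of the stretch the first receptor genes, Olfr467 and Olfr469, were covered in 8 libraries, and the next 4, Olfr470 to Olfr474, in 9, more than any other receptor genes of cluster F. Those farthest from it on its left side, Olfr693 to Olfr709-ps1, were covered in 6, and Olfr519 at the far right end in 5. The fewest libraries, 4, covered the 6 genes from Olfr2 to Olfr716 directly left of the stretch. Among these 6 are Olfr2, the I7 receptor for octanal, and Olfr17, the P2 receptor used to trace axons to the olfactory bulb, which are named for what is known of them.

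A single long domain covered all or nearly all of cluster F in 4 libraries. LAP2alpha at 30 cycles had a domain of 2.74 Mb (score 24.3, library median 8.43), 3A6 KO at 12 cycles one of 2.69 Mb (score 28.9, median 9.70) and 3A6 KO at 30 cycles one of 3.02 Mb (score 25.7, median 6.63), each over all 65 genes. Lamin B1 at 30 cycles had one of 2.51 Mb (score 41.6, median 12.9) over 64 genes and ended before Olfr519. In 3A6 WT at 30 cycles 2 domains of 550 kb and 1.16 Mb left most of the middle free and covered 56 genes, with scores of 4.08 and 6.22 that lay under the library median of 6.49. N18 WT at 30 cycles covered 18 genes, from Olfr467 to Olfr488, with 1 domain that also covered 6 of the 9 other genes. N18 KO covered 5 genes at 12 cycles, from Olfr514 to Olfr519, and 6 at 30 cycles, from Olfr513 to Olfr519, at the right end of the cluster, each time beside a separate domain over the stretch without receptor genes.

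Clusters A and G, at the 2 ends of the family, were covered in most libraries. All 8 genes of cluster A were covered in 9 libraries, and none was covered in lamin B1 at 12 cycles, N18 WT at 12 cycles or 3A6 WT at 30 cycles. The domains there ran from 0.748 Mb in N18 KO at 12 cycles to 3.33 Mb in LAP2alpha at 30 cycles, and the latter, with a score of 47.6, held 86 other coding genes. Cluster A stands between Zfp28 and Zim1, zinc finger genes, the second of them imprinted.

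Cluster G was covered at least in part in every library. Its 6 genes from Olfr525 to Olfr532, which are Olfr525, Olfr527, Olfr60, Olfr530, Olfr531 and Olfr532, were covered in all 12 libraries, and no other receptor gene of chromosome 7 was. All 19 genes were covered in 7 libraries. In LAP2alpha at 30 cycles they lay in a domain of 30.2 Mb with a score of 263 and 413 other coding genes, and in LAP2alpha at 12 cycles in one of 14.0 Mb with a score of 96.8. In lamin B1 the domain over the cluster was short, 550 kb at each sonication, scored 6.71 and 6.58, under the library medians of 8.71 and 12.9, and covered 16 genes without the first 3, Olfr522, Olfr523 and Olfr524. 3A6 WT at 30 cycles covered the same 16 genes with a domain of 583 kb. N18 WT at 30 cycles covered 12 genes, from Olfr525 to Olfr61. Both other coding genes inside the cluster were covered in most libraries, Cd163l1, a scavenger receptor gene, in 10 and 5830411N06Rik in 12.

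The small clusters had few domains. Cluster B was covered in lamin B1 at both sonications and in 3A6 KO at 30 cycles. In cluster C, lamin B1 at 30 cycles covered all 15 genes with a domain of 3.38 Mb (score 52.5) that also reached cluster B, 3A6 WT at 30 cycles covered the 14 genes from Olfr309 to Olfr292 with a domain of 1.64 Mb (score 7.99), and 3A6 KO at 30 cycles covered only the remaining gene, Olfr310. Cluster D was covered in LAP2alpha at 12 cycles (Olfr520 alone), in LAP2alpha at 30 cycles and in N18 KO at 30 cycles (both genes), and in no lamin B1 library.

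Sonication was compared within each antibody and genotype, because the study used longer shearing to bring compact chromatin into the libraries. More receptor genes were covered at 30 cycles alone than at 12 cycles alone in each of the 6 pairs, though in both KO pairs the share at 30 cycles alone was near or below that of all genes, and with 3A6 WT the order turned when only domains above the median score were kept. With lamin B1, 163 genes were covered at 30 cycles alone (67.9%, against 9.61% of all genes) and 0 at 12 cycles alone (against 0.600%). Of the 163, 118 were in cluster E, 22 in F, 15 in C and 8 in A. With LAP2alpha, 60 genes were covered at 30 cycles alone (25.0%, against 12.1%) and 0 at 12 cycles alone (against 15.7%), 59 of the 60 in cluster F. With 3A6 in WT, 156 genes were covered at 30 cycles alone (65.0%, against 8.41%), which were 93 genes of cluster E, 49 of F and 14 of C. The 11 genes covered at 12 cycles alone (4.58%, against 20.1%) were the 8 of cluster A and the first 3 of cluster G.

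With N18 in WT, 32 genes were covered at 30 cycles alone (13.3%, against 2.70%) and 3 at 12 cycles alone (1.25%, against 24.2%). The 32 were 8 genes of cluster A, 18 of F and 6 of G. N18 KO covered 32 genes at both sonications (13.3%, against 16.3%), 3 at 30 cycles alone (1.25%, against 12.2%) and 0 at 12 cycles alone (against 6.83%). 3A6 KO covered 92 genes at both (38.3%, against 5.22%), 19 at 30 cycles alone (7.92%, against 7.37%) and 0 at 12 cycles alone (against 5.50%). The share of genes covered at 12 cycles that were also covered at 30 was higher in KO than in WT over all genes too, at 70.5% against 11.6% with N18 and 48.7% against 4.78% with 3A6. Shearing and flow cell go together in these pairs, lamin B1 excepted, and cannot be told apart. The counts of 3A6 WT rest on low-scoring domains, and those of N18 WT do so in part. With only domains above the median score of their library, 3A6 WT covered 14 genes at 30 cycles alone, 26 at 12 cycles alone and 0 at both. N18 WT, with 32, 3 and 6 over all domains, then covered 26, 9 and 0. In KO cells the genes covered at 30 cycles alone then numbered 6 with N18 and 3 with 3A6.

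Lamin A/C domains of KO cells were set against those of WT cells to ask where lamin A/C sits without LAP2alpha. Genes covered in WT alone are called lost and genes covered in KO alone gained, as names for 2 lists and with no test. With 3A6 at 12 cycles receptor genes were gained and none was lost. Of the 240 genes 58 were gained (24.2%, against 5.01% of all genes), 34 were covered in both and 0 were lost (against 15.4%). Only genes covered in WT could be lost, here 14.2% of the receptor genes, so the share lost could not reach 15.4%. Of genes covered in WT, 100% of the receptor genes were kept, against 27.1% of all genes. The 34 genes lay in clusters A, F and G and share domains. All 58 belong to cluster F, which was covered whole in KO by the 2.69 Mb domain and over 7 genes in WT. Clusters A and G were covered whole in both genotypes.

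With 3A6 at 30 cycles most of the class I cluster was lost, though only in low-scoring domains. In all, 101 receptor genes were lost (42.1%, against 5.75% of all genes), 78 were covered in both and 33 were gained (13.8%, against 8.93%). The lost genes were 87 of cluster E and 14 of cluster C. Each 3A6 domain over cluster E scored under its library median, so the 87 are not lost among domains above it. In cluster E 6 genes were covered in both genotypes, Olfr65 to Olfr638, and 10 were gained, Olfr639 to Olfr649, so that the domain of KO sat beside that of WT more than on it. The other gained genes were all 8 of cluster A, both of cluster B, Olfr310 of cluster C, 9 of cluster F and Olfr522, Olfr523 and Olfr524 of cluster G. These counts rest on low-scoring domains: where only domains above the median score of their library were kept, 3A6 WT at 30 cycles covered 5.83% of the receptor genes in place of 74.6%, and 14 genes were lost and 95 gained.

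With N18 the numbers were smaller and cluster E took no part. At 12 cycles 23 receptor genes were gained (9.58%, against 7.65% of all genes and 18.6% of the other chromosome 7 genes). Another 9 were covered in both and 0 were lost (against 11.9%). Only those 9, all of cluster G, were covered in WT and could be lost. All 9 were kept, where 56.5% of all genes covered in WT were. The gained genes were the 8 of cluster A, 5 of cluster F and 10 of cluster G. At 30 cycles 15 were gained (against 24.4%), 20 were covered in both and 18 were lost (against 1.76%). The lost genes were those of cluster F from Olfr467 to Olfr488, and the gained ones were 2 of cluster D, 6 of cluster F and 7 of cluster G. With domains above the median score alone, 25 genes were gained at 30 cycles.

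Few receptor genes were gained with both antibodies. At 12 cycles these were 5 genes of cluster F, from Olfr514 to Olfr519 (2.08% of the receptor genes and 2.21% of all genes). At 30 cycles they were 6 genes, Olfr517 to Olfr519 of cluster F and Olfr522 to Olfr524 of cluster G (2.50% and 4.23%). No receptor gene was lost with both antibodies at either sonication, where 5.66% of all genes were at 12 cycles and 0.336% at 30. The antibodies share the input libraries of each genotype and sonication, so these joint counts are not independent.

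**Figure D3:**
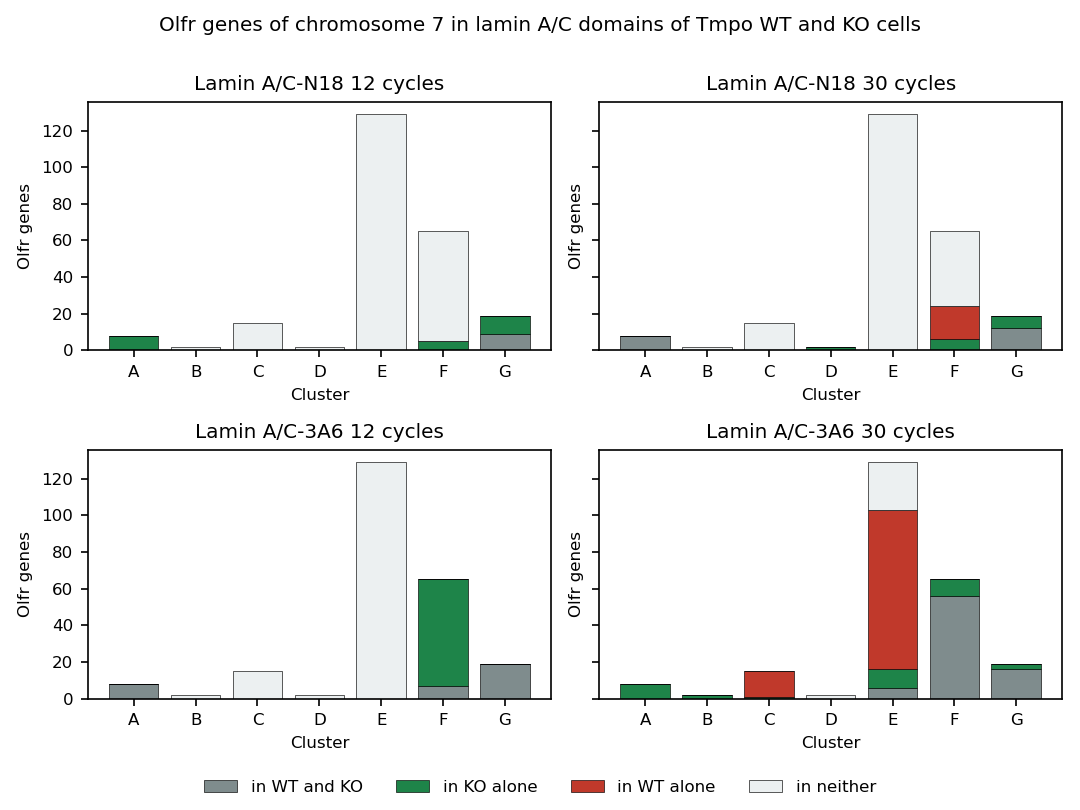
Number of Olfr genes of each chromosome 7 cluster that were in lamin A/C domains of both genotypes (grey), of KO alone (green), of WT alone (red) or of neither (pale), for N18 (top) and 3A6 (bottom) at 12 cycles (left) and 30 cycles (right), with 1 library per genotype. The large coloured blocks are the 58 genes of cluster F in KO alone with 3A6 at 12 cycles and the 87 genes of cluster E in WT alone with 3A6 at 30 cycles. Those 87 genes lay in WT domains that scored under the library median.

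Receptor genes of other chromosomes were read side by side with those of chromosome 7. Lamin B1 covered 60.0% of the 873 other Olfr genes at 12 cycles, against 25.0% on chromosome 7, and 74.8% at 30 cycles, against 92.9%. Chromosomes 2 and 9 stood above chromosome 7 at both sonications, at 95.8% and 91.5% at 12 cycles and 98.3% and 96.9% at 30 cycles. In 3A6 WT at 30 cycles the share was 74.6% on chromosome 7, 71.8% over the 873 other Olfr genes, 98.3% on chromosome 2 and 87.6% on chromosome 9. The share on chromosome 7 was 5.83% with domains above the median score alone. That filter was not applied to the other Olfr genes, so whether their cover rests on low-scoring domains too is not known. With 3A6 in KO at 30 cycles 0% of the Olfr genes on chromosome 2 and 24.8% on chromosome 9 were covered, against 46.2% on chromosome 7. On chromosome 2, 281 of 286 genes were lost and on chromosome 9, 94 of 129.

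In the LAP2alpha and N18 libraries the Olfr genes of chromosomes 2 and 9 were seldom covered. LAP2alpha at 12 cycles, N18 KO at either sonication and N18 WT at 12 cycles covered none of either chromosome. LAP2alpha at 30 cycles covered 18.9% on chromosome 2 and 3.10% on chromosome 9, and N18 WT at 30 cycles 4.20% and 0%. The receptor genes of chromosome 7 covered there were mostly those of clusters A, F and G. Of the 1832 other protein-coding genes of chromosome 7, 58.9% were covered in LAP2alpha at 12 cycles and 77.6% at 30 cycles, against 14.2% and 39.2% of the receptor genes. In lamin B1 at 30 cycles it was the other way round, with 14.7% of the other genes and 92.9% of the receptor genes covered.

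**Figure D4:**
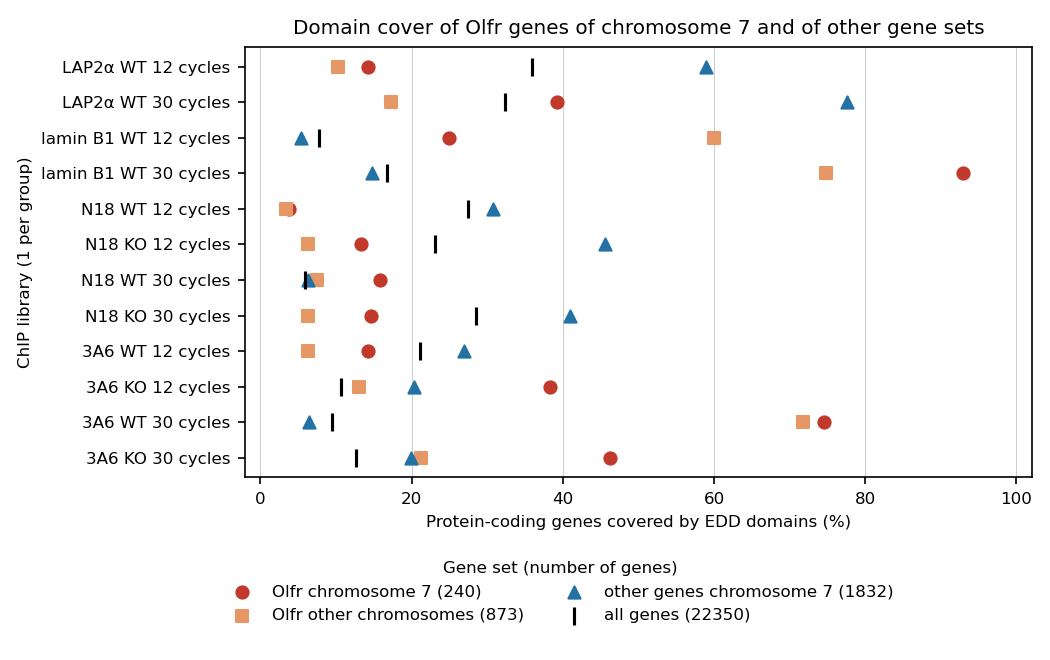
Percent of protein-coding genes covered by EDD domains in each library (lines), for the 240 Olfr genes of chromosome 7 (red circles), the 873 Olfr genes of other chromosomes (orange squares), the 1832 other genes of chromosome 7 (blue triangles) and all 22350 genes (black bars). Red circles lie right of the black bar in 7 libraries, farthest in lamin B1 at 30 cycles (92.9% against 16.8%), and left of it in 5.

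Genes that act with the receptors were looked up in lists fixed for this purpose. Of 14 genes of olfactory signalling, 0 to 5 were covered in a library. The highest count, 5 of 14 (35.7%), occurred in LAP2alpha at 12 cycles and in N18 KO at 12 and at 30 cycles. Of all genes, 35.9%, 23.1% and 28.5% were covered in these libraries. Cnga4, a subunit of the olfactory cyclic nucleotide-gated channel, stands 35.2 kb beyond the last gene of cluster E, Olfr692, and 34.1 kb beyond the end of the lamin B1 domain, and was covered in no library. Omp, the olfactory marker protein gene, also on chromosome 7, was covered in none, as were Gnb1, Pde1c and Rtp2. Adcy3, the adenylyl cyclase of olfactory cilia, was covered in 7 libraries and Slc24a4, the exchanger that ends the odour response, in 8, of LAP2alpha and lamin A/C only. Cnga2 was the single gene of this list in a lamin B1 domain, at 30 cycles.

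Of 7 regulators of receptor gene choice, 0 to 4 were covered in a library. The highest count, 4 of 7 in LAP2alpha at 12 cycles, is 57.1%, where 35.9% of all genes were covered. The count was 0 in both lamin B1 and all 4 3A6 libraries, which covered 7.76% to 21.1% of all genes, so that few of 7 genes would be covered at those shares. Lhx2, a homeodomain factor of receptor enhancers, was covered in 3 libraries, its cofactor gene Ldb1 in 1, Lbr, the lamin B receptor gene, whose product holds heterochromatin at the lamina, in 2, the demethylase gene Kdm1a in 2 and Atf5, a factor of the stress response that follows receptor choice, in 5. Ebf1 and Emx2 were covered in none. Libraries per gene were not tallied over all genes, so the counts for single genes of both lists show nothing particular to them.

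The deposited SICER islands, narrower regions called from the same reads, gave no value for the receptor genes. No island touched any of the 240 genes or the span of any cluster in any library. Chromosome 7 as a whole held 1 to 5 islands per library of 4183 to 9159, which is 0.0114% to 0.0717% of them on 5.78% of the genome, so the lists are nearly empty for this chromosome and their silence over the receptor genes cannot be read as absence of binding. The nearest island to a cluster lay 400 kb away, in lamin B1 at 30 cycles.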

How the data were processed

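ChIP DNA of LAP2alpha, lamin A/C (N18, 3A6) and lamin B1 was sequenced in 12 libraries, 1 per group. Per the study's methods and labels, adapters were clipped by the authors (cutadapt) and reads mapped to mm9 by Bowtie2 2.1.0. They dropped reads of mapping quality under 20, removed duplicates and down-sampled each ChIP to its input with Picard. They called broad domains per library with EDD 1.0.2 (bin 11 kb, gap penalty 5, FDR 0.1) and islands with SICER 1.1 (window 1000 bp, gap 3000 bp, FDR 0.01). The deposited domain files give a score per domain, as EDD wrote it. The deposited island files give the read count in each island. Island totals of 3989494 to 13601739 reads do not give library depth. The study reports read counts per sample in its supplement, but they were not used here, so no interval was set from depth.

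Genes were the protein-coding records of GENCODE M1 on mm9, with 17 records on chromosome Y left out. A gene was covered at 50% of its length or more. Clusters, windows, motifs and coding identity (edlib) were computed in Python 3.11.15 with pandas 2.3.3, and interval arithmetic was tested on 2000 simulated intervals with 0 errors. With 1 library per group no test was run: counts stand beside the percent of all 22350 records. Genes were named by rule: the ends of each cluster, those in most and fewest libraries (first 5 if tied), those changed alike with both antibodies, those cut by a domain edge, listed genes inside clusters or else the 2 longest, and fixed lists. Runs of neighbours were named by their ends. The members, lists and named genes were chosen with earlier results of these data known, and the genes whose sequence is shown were picked by pattern after the values were seen. Alternatives changed the overlap rule, the domains and the gap between clusters. Some listed genes inside the clusters are not reported here.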

Additional observations from a re-analysis of the deposited data

Results flagged for a closer look

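The difference between KO and WT in receptor genes covered pointed in opposite directions at the 2 sonications with each antibody. With lamin A/C-3A6 it was 58 genes more in KO at 12 cycles (92 against 34) and -68 at 30 cycles (111 against 179). With N18 it was 23 genes more in KO at 12 cycles (32 against 9) and -3 at 30 cycles (35 against 38). Over all genes the direction also turned between sonications, the other way round. With 3A6, 21.1% of all genes were covered in WT and 10.7% in KO at 12 cycles, and 9.42% and 12.6% at 30 cycles. With N18 the shares were 27.4% and 23.1% at 12 cycles, and 5.89% and 28.5% at 30 cycles. With N18 the other genes of chromosome 7 were covered more in KO at both sonications. Their shares were 30.8% in WT and 45.6% in KO at 12 cycles, and 6.33% and 40.9% at 30 cycles. With 3A6 they were 26.9% and 20.3% at 12 cycles, and 6.44% and 19.9% at 30 cycles. So more cover in KO with N18 at 12 cycles was not particular to the receptor genes. The difference between sonications was not tested, since each value comes from 1 library per genotype. The clusters behind the values were not the same ones: with 3A6 the 58 genes were all of cluster F, and at 30 cycles 87 of the 101 lost genes were of cluster E. With only domains above the median score of their library, both differences at 30 cycles turned the other way, with 25 genes gained and 18 lost for N18 and 95 gained and 14 lost for 3A6.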

How the results depend on the processing

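The 38 values were percents per library, lost and gained genes, and genes by sonication. A value was labelled moved beyond a 95% Wilson interval for percents or 1.5 times for counts. That interval treats the receptor genes as independent, though genes of a cluster share domains, so it is a label and measures no spread. Counting a gene as covered at 1 bp, only when whole, or by its transcription start moved none of the 38. These rules could hardly move a value, since a domain edge fell inside a gene in 2 of 2880 pairs of gene and library. Keeping only domains above the median score of their library moved 15 of the 38. The covered percent became 18.3 for lamin B1 at 12 cycles (from 25.0), 82.9 for lamin B1 at 30 cycles (from 92.9), 10.8 for N18 WT at 30 cycles (from 15.8), 5.83 for 3A6 WT at 30 cycles (from 74.6) and 39.6 for 3A6 KO at 30 cycles (from 46.2). Genes gained at 30 cycles became 25 with N18 (from 15) and 95 with 3A6 (from 33), and genes lost with 3A6 at 30 cycles became 14 (from 101). By sonication, N18 WT became 9 at 12 cycles alone (from 3) and 0 at both (from 6), 3A6 WT became 26 at 12 cycles alone (from 11), 0 at both (from 23) and 14 at 30 cycles alone (from 156), N18 KO became 6 at 30 cycles alone (from 3) and 3A6 KO became 3 at 30 cycles alone (from 19). SICER islands gave 0 for every percent and count, moving the 32 that were above 0, since the island lists held 1 to 5 islands on chromosome 7. A gap of 500 kb between clusters gave 8 clusters and one of 2 Mb gave 5, against 7. No paired analysis was possible because each group holds 1 library. The precision is limited by the absence of replicates and by the 11 kb step of the domains, and the depth behind each domain is not in the files.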
